A study of Mus musculus with 116 samples.

Results

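Transcripts of 10 genes that mark blood vessels and meninges were followed through RNA libraries of sorted cortical cells. The meningeal members were Col1a1, Col1a2, Col3a1, Dcn and Lum, and the endothelial members were Cldn5, Pecam1, Kdr, Flt1 and Cdh5. They were taken by name, as 10 of the 53379 gene identifiers counted, and every one was found. Fluorescent cells came from mouse cortex of P0 and of the embryonic days E16.5, E13.5 and E12.5, several cortices being pooled for a sample, and were sequenced with bulk Smart-Seq2. The labels name CD1 as the strain and write the embryonic ages without the decimal. The study's methods describe a mixed C57BL/6-CD1 background.

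All animals carried Emx1-Cre and the MADM7 cassettes, in which Cre-driven exchange between homologous chromosomes leaves sparse cells green, red or yellow. Eed lies on the chromosome that bears the cassettes. In control-MADM every cell was Eed+/+. In Eed-MADM the tissue was heterozygous, and of the labelled cells the red ones were Eed+/+, the yellow ones Eed+/- and the green ones Eed-/-. In cKO-Eed-MADM the cells of all 3 colours were Eed-/-, as were the unlabelled cells of the Emx1 lineage around them. Of 116 libraries, 92 held at least 1000000 reads aligned to a single place that made up at least 60% of all their reads, and these comprised 55 green, 20 yellow and 17 red ones. They fell into 32 groups of age, genotype and colour, of which 7 held a single library. Of green libraries control-MADM had 5 (P0), 3 (E16.5), 2 (E13.5) and 5 (E12.5). In the same order Eed-MADM had 9, 5, 2 and 8, and cKO-Eed-MADM had 4 of each age.

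Endothelial cells line the vessels that grow into the cortex from its surface, and fibroblasts of the meninges cover that surface and secrete collagens and small proteoglycans. Neither cell type arises from the Emx1-expressing progenitors of the dorsal telencephalon, in which Emx1-Cre is active. EED is a core subunit of PRC2, the complex that places a repressive methyl mark on histone tails and keeps lineage genes of other tissues silent. Transcripts of vessel or meningeal genes in a sorted library can therefore be read either as the make-up of the library or as transcripts of the sorted cells, and the values below show in which libraries and beside which other genes they occurred. In bulk RNA, fewer cells of a type and less RNA per cell cannot be told apart.

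The members lie apart in the genome except for one pair (GRCm38, GENCODE M21 annotation). Dcn (chr10:97479609-97518143) and Lum (chr10:97565128-97572703) are neighbours on the plus strand and encode decorin and lumican, small leucine-rich proteoglycans that bind collagen fibrils. Col1a1 (chr11:94936224-94953042, plus) and Col1a2 (chr6:4504814-4541544, plus) encode the chains of type I collagen, and Col3a1 (chr1:45311538-45349706, plus) encodes type III collagen. Cldn5 (chr16:18776847-18778262, plus), Pecam1 (chr11:106654217-106750628, minus) and Cdh5 (chr8:104101625-104144511, plus) encode claudin 5, PECAM-1 and VE-cadherin, proteins of endothelial junctions. Kdr (chr5:75932827-75978458, minus) and Flt1 (chr5:147561604-147726011, minus) encode receptors of VEGF. A RefSeq promoter was at hand for 5 of the 10 members, and the 250 bases before the start (GRCm38.p6) of 4 of them are printed from 5′ to 3′ to show their CpG sites, in capitals, as PRC2 is often found at CpG-rich promoters.
Col3a1, chr1:45311288-45311537, plus: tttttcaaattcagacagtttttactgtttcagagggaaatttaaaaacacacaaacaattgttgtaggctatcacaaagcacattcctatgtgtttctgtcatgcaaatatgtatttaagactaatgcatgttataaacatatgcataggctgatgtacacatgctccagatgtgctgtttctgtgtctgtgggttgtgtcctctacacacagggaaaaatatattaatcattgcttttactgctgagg
Cldn5, chr16:18776597-18776846, plus: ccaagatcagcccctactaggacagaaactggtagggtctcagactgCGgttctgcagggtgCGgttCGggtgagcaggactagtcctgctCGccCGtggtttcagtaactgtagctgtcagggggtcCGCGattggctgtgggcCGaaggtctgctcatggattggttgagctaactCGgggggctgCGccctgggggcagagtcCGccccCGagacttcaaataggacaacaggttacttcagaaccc
Kdr, chr5:75978456-75978705, minus: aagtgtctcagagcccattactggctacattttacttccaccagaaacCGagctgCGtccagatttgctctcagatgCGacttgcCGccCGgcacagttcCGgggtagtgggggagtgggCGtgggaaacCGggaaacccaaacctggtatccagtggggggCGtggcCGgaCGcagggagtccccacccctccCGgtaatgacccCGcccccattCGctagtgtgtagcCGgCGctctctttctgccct
Flt1, chr5:147726012-147726261, minus: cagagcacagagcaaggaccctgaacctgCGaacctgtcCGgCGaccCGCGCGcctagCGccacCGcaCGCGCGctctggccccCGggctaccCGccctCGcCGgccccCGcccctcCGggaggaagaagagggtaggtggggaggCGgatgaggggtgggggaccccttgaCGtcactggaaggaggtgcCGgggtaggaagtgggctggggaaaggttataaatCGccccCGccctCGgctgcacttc
Col3a1 had 0 CpG sites in this window, Cldn5 had 12, Kdr 16 and Flt1 23, against a median of 6 over 32851 promoters. Of all promoters, 7.87% held as few as Col3a1, and 88.0% held as many as Flt1 or fewer. Col1a2, whose window lay over an annotated exon and is not printed, had 11, close to Cldn5. Both meningeal counts thus lay under all endothelial counts, only narrowly for Col1a2 and Cldn5, and over no more than 5 promoters. The letters TATAAA stood on either strand in the windows of Col3a1 and Flt1, as in 12.4% of all promoters. These counts describe letters and not binding.

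Levels are given in CPM (reads on the gene per 1000000 reads on all genes) on a scale common to all 92 libraries. Reads on genes numbered between 865832 and 7249098 per library, with a median of 4774010.5, and were fewest at E12.5 (865832 to 2359317). The smallest level that 3 reads could give was 1.26 to 3.15 CPM at E12.5 and 0.438 to 1.04 CPM at the later ages, for counting error only. Eed, the targeted gene, fell with its loss in green cells at P0, from 25.7 to 33.9 CPM in control-MADM to 8.64 to 16.1 CPM in cKO-Eed-MADM (log2 fold change -1.32 ± 0.25 SE, adjusted p = 0.000378, edgeR's quasi-likelihood test with Benjamini-Hochberg adjustment). At E12.5 the levels of Eed-MADM (31.2 to 84.6 CPM) overlapped those of control-MADM (75.2 to 152 CPM). One library stood against its label. The red library labelled cKO-Eed-MADM replicate 1 at P0 had 33.4 CPM of Eed, where the other red cKO-Eed-MADM library had 5.51, and is described by itself further on. Cells of E12.5 were collected in another buffer than those of later ages, so that age and collection cannot be told apart at that step.

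Across the 92 libraries the members ranged from common to nearly absent. Col1a1 had a read in 90 libraries, Col1a2 in 87, Dcn in 81, Col3a1 in 80 and Lum in 64. Among endothelial members Cldn5 had a read in 66 libraries, Pecam1 and Flt1 in 55 each, Kdr in 50 and Cdh5 in 32. Median levels ran from 9.08 CPM for Col1a2 and 7.18 for Col1a1 down to 0.388 for Flt1 and 0 for Cdh5. High values were found mostly in E12.5 libraries of every genotype and in P0 libraries of cKO-Eed-MADM.

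**Figure D1:**
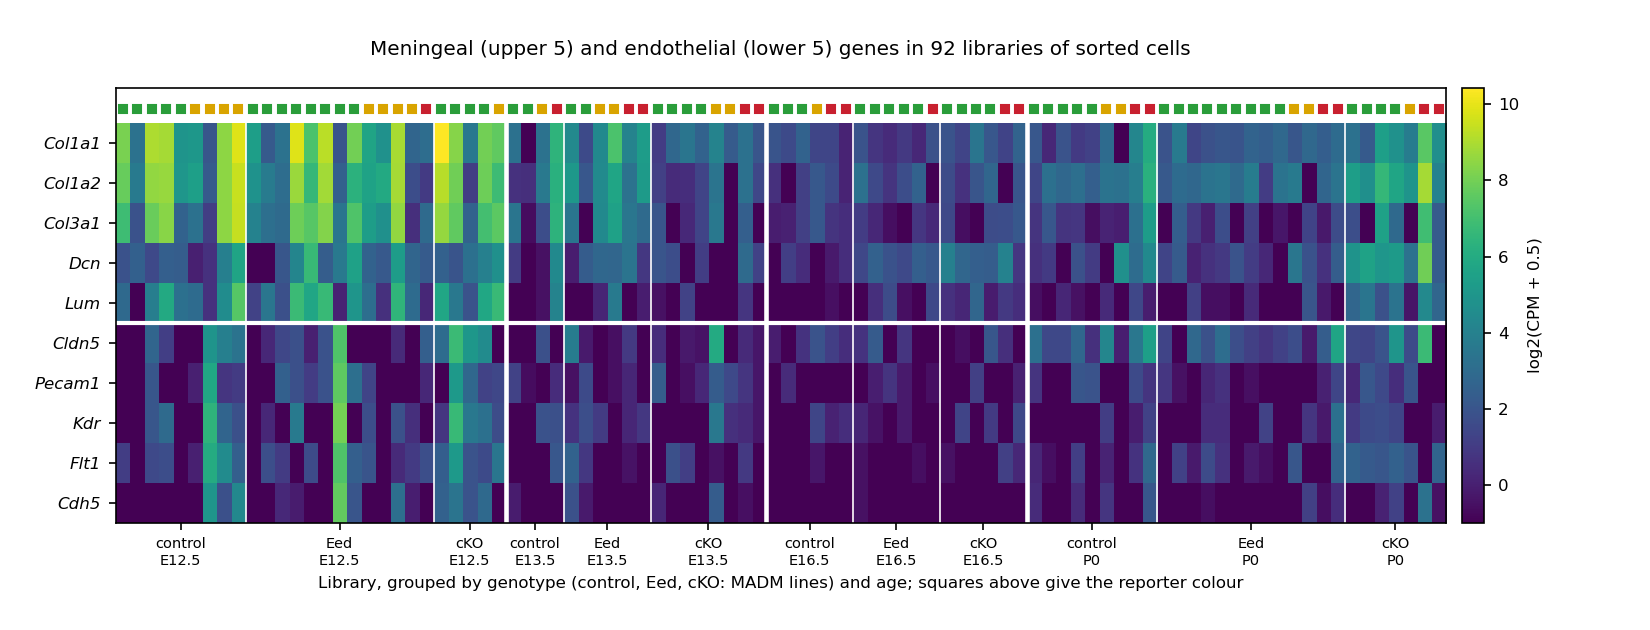
Level of each of the 10 genes (rows) as log2(CPM + 0.5), by colour scale, in each of the 92 libraries (columns), grouped by genotype and age with the reporter colour of the sorted cells as squares on top. Bright columns at E12.5 occur in all genotypes, and a bright endothelial column without a bright meningeal one is seen in 1 green Eed-MADM and 1 yellow control-MADM library.

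At E12.5 the meningeal members were high in some libraries of every genotype and low in others. The summed level of the 5 genes ran from 11.6 to 2545 CPM over 27 libraries, with a median of 569, and was 100 CPM or more in 16 of them. Those 16 comprised 5 of 9 control-MADM libraries, 4 of 8 green and 3 of 4 yellow Eed-MADM libraries, and 4 of 5 cKO-Eed-MADM libraries. Col1a1 measured 283, 9.45, 519, 465.5 and 29.2 CPM in the green control-MADM libraries. In green Eed-MADM its lowest level was 3.41, its median 93.8 and its highest 947 CPM, and in green cKO-Eed-MADM it was 1374, 327, 11.4 and 256 CPM. Each genotype thus held libraries at or under 11.4 CPM beside libraries far higher, and the groups overlapped throughout. Yellow cells varied as much, with Col1a1 at 32.1, 3.68, 360 and 933 CPM in control-MADM and at 50.3, 27.1, 485 and 6.06 CPM in Eed-MADM. Collagens made up most of the meningeal sum at this age. Dcn and Lum together came to a median of 9.13% of it, between 1.48% and 58.0%.

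Endothelial members were low in most E12.5 libraries and stood out in 3. Their sum ran from 0 to 965 CPM with a median of 11.7, and was 100 CPM or more in 3 of 27 libraries, one of each genotype. Green Eed-MADM replicate 8 had the highest levels of all 92 libraries for each of the 5 genes, with Cldn5 at 154, Pecam1 at 190, Kdr at 264, Flt1 at 152 and Cdh5 at 204 CPM. Its meningeal sum was 31.3 CPM, among the low ones of its age. Green cKO-Eed-MADM replicate 3 had Cldn5 at 108 and Kdr at 103 CPM beside a meningeal sum of 783 CPM. Yellow control-MADM replicate 2 had Kdr at 85.1, Flt1 at 65.6 and Pecam1 at 55.1 CPM beside a meningeal sum of 11.6 CPM. Red blood cell genes also varied between E12.5 libraries, with a sum from 3.73 to 124277 CPM, and their part in these levels was not tested.

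No member passed the test between genotypes in green cells at E12.5. Of 10 members tested, 0 were called in Eed-MADM against control-MADM, in cKO-Eed-MADM against control-MADM or in cKO-Eed-MADM against Eed-MADM, by edgeR's quasi-likelihood test and by DESeq2, where 0%, 0% and 0% of the 18100 genes tested were called by the first. At an unadjusted p under 0.05 edgeR gave 3, 1 and 0 members and 689, 1292 and 1307 genes. The 3 were Dcn (log2 difference 2.52 ± 1.05 SE), Pecam1 (4.98 ± 2.05) and Cdh5 (8.47 ± 3.38), each with an adjusted p of 1. Without Eed-MADM replicate 8, a choice made after seeing the data, the count stayed at 0. Green cKO-Eed-MADM cells lay above every control-MADM library for 2 of 10 members, as did 0.719% of genes with a read. Cldn5 was at 7.77 to 108 CPM against 0 to 6.02 CPM (log2 difference 4.69 ± 1.97 SE, adjusted p = 0.632, edgeR's quasi-likelihood test with Benjamini-Hochberg adjustment), and was called in the fit with replicate number as a block. Cdh5 was at 3.26 to 10.1 CPM against 0 in all 5 (at least 16.7-fold higher). In yellow control-MADM cells of this age, also Eed+/+, Cldn5 reached 29.4 CPM and Cdh5 31.0 CPM. For Col1a1 the difference between cKO-Eed-MADM and control-MADM was 0.91 with a standard error of 1.53 on the log2 scale, an error larger than the difference.

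**Figure D2:**
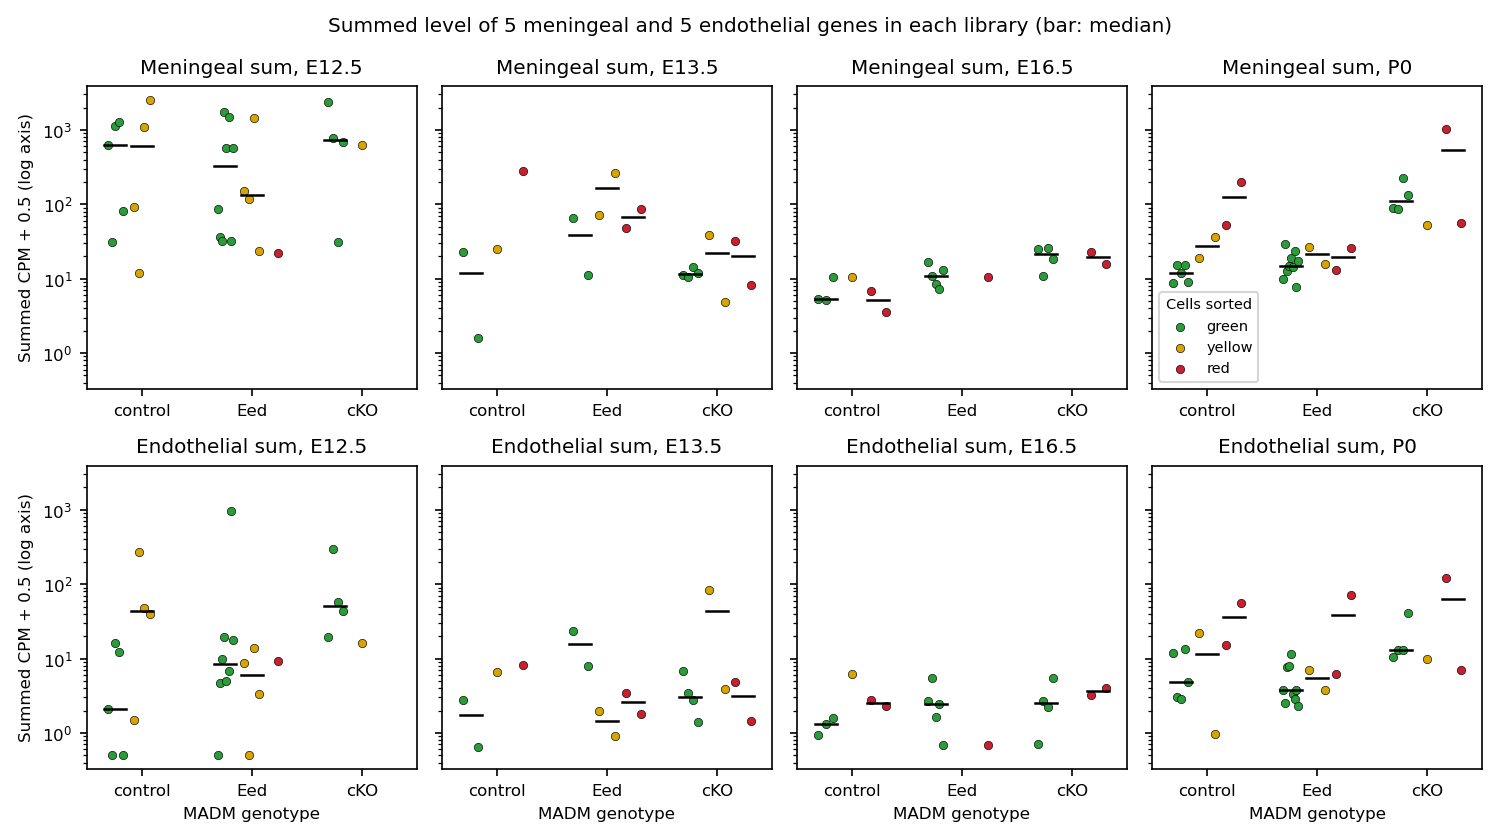
Summed level of the 5 meningeal genes (upper row) and 5 endothelial genes (lower row), as CPM + 0.5 on a log axis, in each library by age, genotype and colour of the sorted cells, with bars at group medians. Levels at E12.5 spread over 11.6 to 2545 CPM for the meningeal sum in all genotypes, lie mostly lower at E13.5 and E16.5, and at P0 separate cKO-Eed-MADM from the other green libraries in the meningeal sum (86.8 to 223 CPM), while the endothelial sum overlaps (9.93 to 40.4 CPM against 2.32 to 12.8 CPM in control-MADM).

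Levels of the type I collagen genes fell between E12.5 and E13.5 in green control-MADM cells. Col1a1 was 9.15 and 0 CPM in the 2 libraries of E13.5, and Col1a2 was 1.04 and 0.932 CPM, both under all 5 libraries of E12.5. In the comparison of ages 3 of 4 members tested were called lower, where 19% of all genes were called in either direction. Col1a2 fell by 7.80 ± 1.51 SE on the log2 scale (adjusted p = 0.00352) and Col1a1 fell by 6.01 ± 1.69 (adjusted p = 0.0279, edgeR's quasi-likelihood test with Benjamini-Hochberg adjustment). Lum was the third (adjusted p = 0.00986, the same test) and had 0 reads in both E13.5 libraries. Col3a1 was tested and not called, though its unadjusted p was under 0.05. It was at 10.4 and 0.155 CPM at E13.5 and at 3.15 to 332 CPM at E12.5, so that its ages overlapped. Between E13.5 and E16.5, 0 of 4 were called by edgeR (0 also at an unadjusted p under 0.05), beside 8.77% of all genes. Between E16.5 and P0, 0 of 4 were called and 1 had an unadjusted p under 0.05, beside 7.48% of all genes. Other transcripts fell with the collagens between E12.5 and E13.5. Of other fibroblast matrix genes 9 of 15 tested fell, of red blood cell genes 2 of 9 (median -7.78), and of meningeal and endothelial transcription factors 1 of 7 and 1 of 5. The red blood cell sum was 7.89 to 19755 CPM in the 5 libraries of E12.5 and 11.5 to 49.7 CPM in the 2 of E13.5. Their part in the collagen levels was not tested. In DESeq2 the 3 steps of age gave 4 members called, all lower.

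At E13.5 the meningeal sum was 100 CPM or more in 2 of 18 libraries, neither of them from cKO-Eed-MADM. Red control-MADM replicate 1 had Col1a1 at 86.3, Col3a1 at 84.2, Col1a2 at 75.3, Dcn at 21 and Lum at 16.8 CPM. Yellow Eed-MADM replicate 2 had Col1a1 at 146 CPM. The red control-MADM library also held 119995 CPM of red blood cell genes and 29.2 CPM of Hox genes, though labelled Eed+/+. In the 8 cKO-Eed-MADM libraries the meningeal sum was between 4.35 and 38.3 CPM, while the Hox sum had already reached 73.4 to 209 CPM. Cldn5 stood out in yellow cKO-Eed-MADM replicate 1, at 63.0 CPM with Kdr at 11.4.

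In green cells at E13.5 3 members, all collagens, passed the filter on low counts and 0 were called by edgeR in the 3 comparisons of genotypes. Over all 13448 genes 0% were called in Eed-MADM against control-MADM, 0.0372% in cKO-Eed-MADM against control-MADM and 0.0223% in cKO-Eed-MADM against Eed-MADM. At an unadjusted p under 0.05 the members numbered 1, 0 and 1. Both were Col1a2, which was at 33.6 and 3.79 CPM in the 2 green Eed-MADM libraries, at 1.04 and 0.932 in control-MADM and between 0.832 and 2.08 in cKO-Eed-MADM. Both green Eed-MADM libraries lay above both control-MADM libraries for 4 of 10 members (Col1a2, Cldn5, Kdr and Flt1), as did 12.3% of genes with a read, and none of the 10 did so in cKO-Eed-MADM. The difference of Col1a2 between cKO-Eed-MADM and Eed-MADM was -3.73 ± 0.91 SE (log2, adjusted p = 0.428, edgeR's quasi-likelihood test with Benjamini-Hochberg adjustment), and DESeq2 called it lower. Col1a2 passed the filter on low counts only through the Eed-MADM libraries, which held 172 of its reads. Control-MADM held 11 and cKO-Eed-MADM 26. These results for Col1a2 therefore rest partly on the filter.

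At E16.5 vessel and meningeal transcripts were scarce in every genotype, and Dcn was the one member called. The endothelial sum did not exceed 5.78 CPM and the meningeal sum 25.3 CPM in any of 18 libraries. Dcn measured 15.3, 6.32, 5.06 and 4.63 CPM in green cKO-Eed-MADM, 0, 1.65 and 0.878 CPM in green control-MADM, and 2.21 to 5.27 CPM in green Eed-MADM. The cKO-Eed-MADM libraries lay above all control-MADM libraries but not above all Eed-MADM libraries. Of 3 members tested (Col1a1, Col1a2 and Dcn), 1 was called in cKO-Eed-MADM against control-MADM, where 8.58% of all genes were. Dcn rose by 3.29 ± 0.96 SE on the log2 scale (adjusted p = 0.0387, edgeR's quasi-likelihood test with Benjamini-Hochberg adjustment). The call was lost without control-MADM replicate 1 or 3 or without cKO-Eed-MADM replicate 1, 2 or 3, where the difference was 2.62 to 3.45 and the adjusted p 0.0523 to 0.124. In the fit with replicate number as a block it was lost too. Lum was at 1.04, 0.683, 6.23 and 0.403 CPM in green cKO-Eed-MADM and at 0 in all 3 control-MADM libraries, and was thus at least 10.5-fold higher against 3 counts over the group. Dcn and Lum were 2 of the 10 members whose cKO-Eed-MADM libraries all lay above control-MADM, a pattern that 6.74% of genes with a read showed.

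Against Eed-MADM, 0 of the 3 members were called in green cKO-Eed-MADM cells at E16.5 by either tool, beside 7.04% of all genes, and against control-MADM 0 were called in Eed-MADM by either tool, beside 0.255%. At an unadjusted p under 0.05 these counts were 1 and 2. Dcn differed by 1.13 ± 0.71 SE between cKO-Eed-MADM and Eed-MADM (adjusted p = 0.431) and by 2.15 ± 0.92 between Eed-MADM and control-MADM (adjusted p = 0.403, edgeR's quasi-likelihood test with Benjamini-Hochberg adjustment). Hox genes, at 0 to 0.189 CPM in sum in control-MADM of this age, had a sum of 928 to 1632 CPM in the 6 cKO-Eed-MADM libraries of green and red cells, in which the meningeal sum was 10.2 to 25.3 CPM.

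Genes of other cell types also differed in the E16.5 contrast of green cKO-Eed-MADM and control-MADM cells, in which 8.58% of all genes were called in either direction. Of 6 microglial genes tested 2 rose, Csf1r and Cx3cr1 (6.04 ± 1.59 SE, log2), Csf1r being at 1.21 to 16.9 CPM against 0 in all control-MADM libraries (at least 39.2-fold higher). Csf1r could thus pass the filter on low counts only through Eed-/- libraries, which favours its rise. Of red blood cell genes 1 of 5 rose, Hba-a2. Pericyte genes gave 0 of 5. Lists of 5 genes are too small for such counts to be told from the share of all genes. Of 13 other fibroblast matrix genes 2 rose, Fbln2 (3.33 ± 0.56) and Sparc (1.53 ± 0.45), and 1 fell, Fn1 (-1.53 ± 0.41), which encodes fibronectin. Of 8 other endothelial surface and junction genes 3 rose, Itm2a (2.58 ± 0.39), Ramp2 (2.53 ± 0.56) and Esm1 (5.61 ± 1.26). Their part in the Dcn call was not tested.

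At P0 proteoglycan and type I collagen transcripts were higher in green cKO-Eed-MADM cells than in both other genotypes. Dcn measured 28.5, 47.0, 31.6 and 37.0 CPM in green cKO-Eed-MADM, 0 to 3.09 CPM with a median of 1.43 in 5 control-MADM libraries and 0 to 4.29 CPM with a median of 1.38 in 9 Eed-MADM libraries. Its lowest cKO-Eed-MADM library lay several-fold above every other green library, with little spread (36.0 ± 8.12 CPM, SD, n = 4). Col1a2 measured 41.3, 25.2, 98.0 and 52.7 CPM against 2.15 to 8.74 CPM in control-MADM and 1.56 to 13.48 CPM in Eed-MADM. These groups did not overlap either. Lum, the neighbour of Dcn, was at 6.32, 10.4, 3.10 and 9.83 CPM against at most 0.662 CPM in control-MADM and 1.73 CPM in Eed-MADM. Col1a1 measured 9.03, 4.15, 43.8 and 27.3 CPM, above the control-MADM libraries (0.714 to 3.81 CPM) and overlapping Eed-MADM (2.11 to 12.7 CPM). Col3a1 was carried by 1 library, with 46.4 CPM in replicate 3 against 2.89, 0 and 6.97 CPM in the others. The separation of Dcn held for green cells only. In Eed+/+ cells of control-MADM at P0 it was at 7.79 and 20.6 CPM (red) and at 0 and 26.03 CPM (yellow). In Eed-/- cells of cKO-Eed-MADM Dcn was at 4.49 CPM in red replicate 2 and at 9.30 CPM in the yellow library. The red library labelled replicate 1, with Eed at the control level, had 243 CPM. Across colours these genotypes thus overlapped for Dcn.

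Of 5 members tested at P0, 4 rose in green cKO-Eed-MADM cells against control-MADM, beside 24.2% of all genes called, and the same 4 rose against Eed-MADM, beside 19.5% (edgeR's quasi-likelihood test with Benjamini-Hochberg adjustment). Of these, Dcn and Col3a1 passed the filter on low counts only through the cKO-Eed-MADM libraries, which held 664 and 294 of their reads. Control-MADM held 38 and 42, and Eed-MADM 73 and 60. The count of 4 of 5 therefore rests partly on the filter. Dcn rose by 4.70 ± 0.67 SE on the log2 scale against control-MADM (adjusted p = 1.36e-05) and by 4.45 ± 0.53 against Eed-MADM (adjusted p = 1.84e-06). Col1a2 rose by 3.13 ± 0.46 (adjusted p = 2.03e-05) and 2.80 ± 0.37 (adjusted p = 8.37e-06). Col1a1 rose by 3.22 ± 0.60 (adjusted p = 0.000337) and by 2.06 ± 0.48 (adjusted p = 0.00344). Col3a1 was the least certain, at 3.23 ± 1.13 (adjusted p = 0.0417) and 3.41 ± 0.94 (adjusted p = 0.0121). Its call against control-MADM was lost in DESeq2 (adjusted p = 0.0772) and without control-MADM replicate 1, 4, 5 or 6 (adjusted p = 0.0726 to 0.0828). Without cKO-Eed-MADM replicate 3, or with replicate number as a block, 2 members, Dcn and Col1a2, were called against Eed-MADM. The comparisons share the cKO-Eed-MADM libraries. Between Eed-MADM and control-MADM 0 of 5 were called by edgeR and by DESeq2, with 1 at an unadjusted p under 0.05, beside 1.75% of all genes. This was Col1a1, with a difference of 1.16 ± 0.52 SE (log2, adjusted p = 0.257).

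Endothelial members at P0 were low in most green libraries. Kdr was at 1.44, 2.42, 2.72 and 2.14 CPM in green cKO-Eed-MADM, had no read in any of 5 control-MADM libraries and overlapped Eed-MADM, where it reached 1.91 CPM. It was at least 20.8-fold higher than in control-MADM, against 3 counts over that group. Flt1 was at 5.6, 4.15, 3.69 and 5.36 CPM against at most 1.65 CPM in control-MADM and 2.56 CPM in Eed-MADM, with no overlap. This holds for green cells only. In red Eed+/+ cells of this age Flt1 reached 6.80 CPM in control-MADM and 5.71 CPM in Eed-MADM. Kdr reached 1.81 and 8.93 CPM there. The junction genes overlapped between genotypes. Cldn5 was at 2.17, 2.07, 3.3 and 30.2 CPM against 0.989 to 8.79 CPM in control-MADM (log2 difference 1.15 ± 0.84 SE, adjusted p = 0.342), a difference that turned to -0.71 without cKO-Eed-MADM replicate 4. Pecam1 lay between 0.722 and 3.80 CPM against 0 to 3.71 CPM, and Cdh5 between 0 and 1.79 CPM against 0 to 0.829 CPM.

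In green cells at P0 all cKO-Eed-MADM libraries lay above all control-MADM libraries for 6 of 10 members (Col1a1, Col1a2, Dcn, Lum, Kdr and Flt1), as for 6.38% of genes with a read. They lay above all green Eed-MADM libraries for 4 of 10 (Col1a2, Dcn, Lum and Flt1), as for 3.06%. With no filter on low counts all 10 members could be tested. Then 6 were called higher against control-MADM, beside 11.1% of all genes, and 6 against Eed-MADM, beside 8.96%. Lum (log2 difference 4.96 ± 1.07 SE, adjusted p = 0.000811) and Flt1 (3.17 ± 1.04, adjusted p = 0.0375, edgeR's quasi-likelihood test with Benjamini-Hochberg adjustment) were then called in the first of these, as was Kdr (adjusted p = 0.00375). Col3a1 was not called in either. Against Eed-MADM, Lum (4.38 ± 0.83, adjusted p = 0.000177), Flt1 (2.63 ± 0.84, adjusted p = 0.0361) and Cdh5 (adjusted p = 0.0451, 13 reads against 1) were added to Dcn, Col1a2 and Col1a1.

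**Figure D3:**
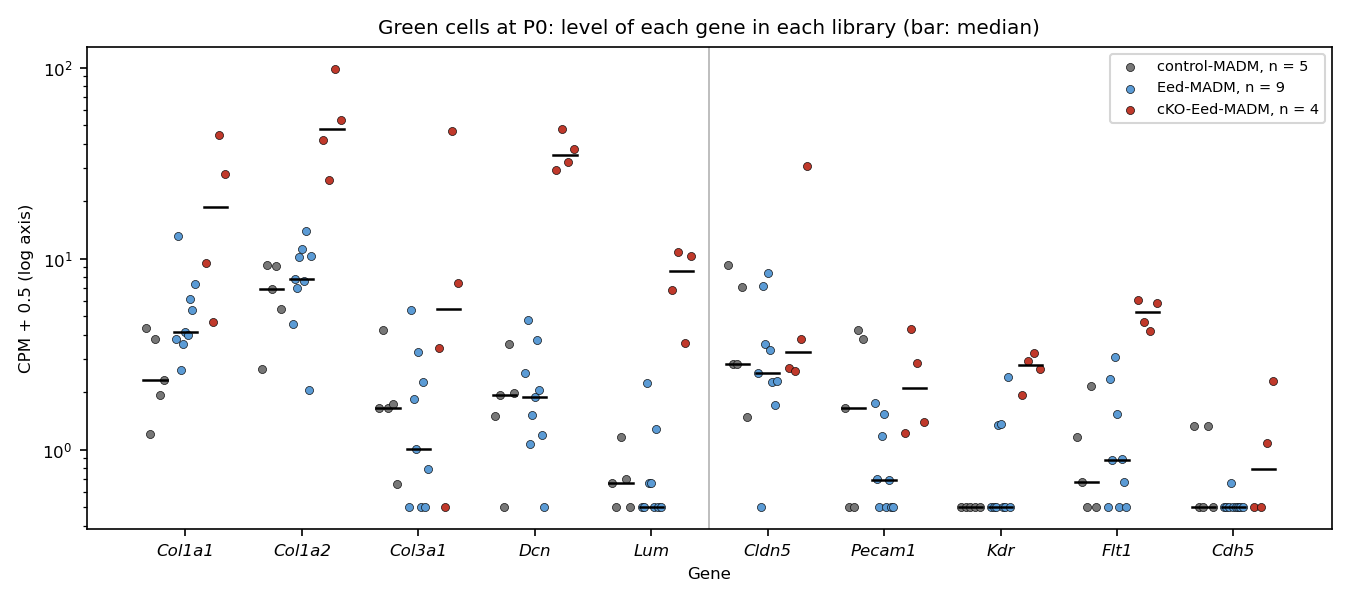
Level of each of the 10 genes in green cells at P0, as CPM + 0.5 on a log axis, in each library of control-MADM (n = 5), Eed-MADM (n = 9) and cKO-Eed-MADM (n = 4), with bars at group medians and a line between meningeal and endothelial genes. Dcn, Lum, Col1a2 and Flt1 of cKO-Eed-MADM lie above all other libraries, Dcn at 28.5 to 47.0 CPM, while Cldn5, Pecam1 and Cdh5 overlap.

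The shares of single members within each summed level are given without a test. In green cKO-Eed-MADM cells at P0 Dcn and Lum made up 15.6% to 66.1% of the meningeal sum. In green cells the share was 5.71% to 22.5% in control-MADM and 0% to 23.4% in Eed-MADM, and these ranges overlapped. Yellow control-MADM cells at P0 had up to 26.03 CPM of Dcn, and no other meningeal member exceeded 9.68 CPM in them. A meningeal sum made up largely of Dcn was thus also found in Eed+/+ cells. At E12.5 Dcn and Lum made up at most 18.2% in the 9 control-MADM libraries, although the sum reached 2545 CPM there. Over all libraries of that age their share went higher, as given above. Per kilobase of exon, Col1a1 led the meningeal members in green control-MADM cells at E12.5 (39.8 ± 36.2 CPM per kb, SD, n = 5), and Dcn was at 0.70 CPM per kb. In green cKO-Eed-MADM cells at P0 Dcn had the highest mean of them, 6.17 ± 1.39 CPM per kb (SD, n = 4), followed by Col1a2 (4.37 ± 2.51), Col1a1 (3.21 ± 2.77), Lum (3.03 ± 1.38) and Col3a1 (1.43 ± 2.21). Each of these 5 differed from its neighbour in the order by less than the larger of both SDs, Dcn and Col1a2 included. Cldn5 was at 6.66 ± 9.78 CPM per kb, an average set by 1 library, and Flt1, Pecam1, Kdr and Cdh5 were between 0.14 and 0.35. Kdr and Flt1, paired here after their values were seen, made up 18.6% to 70.9% of the endothelial sum in these 4 libraries, 0% to 12.9% in control-MADM and 0% to 90% in Eed-MADM.

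The difference between the cKO-Eed-MADM effects at P0 and at E16.5 was called for 0 of 5 members in green cells by edgeR and by DESeq2, beside 1.85% of all genes, and 1 had an unadjusted p under 0.05. This was Col1a1, whose effect was larger at P0 by 2.84 ± 0.93 SE (log2, adjusted p = 0.111, edgeR's quasi-likelihood test with Benjamini-Hochberg adjustment). For Dcn the difference was 1.37 ± 1.17 SE.

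Red and yellow cells at P0 included the highest meningeal levels after E12.5. The red library labelled cKO-Eed-MADM replicate 1 had Col1a2 at 473, Dcn at 243, Col1a1 at 180, Col3a1 at 119, Cldn5 at 110 and Lum at 20.1 CPM, with Pecam1, Kdr and Flt1 at 0. Its Eed level lay in the control-MADM range, its Hox sum was 391 CPM and reads fell on 16 of the 39 Hox genes, fewer than the 34 to 38 of the other P0 cKO-Eed-MADM libraries. It also had the fewest genes with a read of all 92 libraries, 13133, against 18385 to 22465 in those others. The part of this in its missing Hox and endothelial genes was not tested. The other red and the yellow cKO-Eed-MADM library had meningeal sums of 55.9 and 52.7 CPM and Hox sums of 902 and 821 CPM. Red control-MADM replicate 2 had Col1a2 at 75.0, Col1a1 at 65.5 and Cldn5 at 42.6 CPM beside 408 CPM of microglial genes, and red Eed-MADM replicate 2 had Cldn5 at 52.5 CPM. The meningeal sum of that control-MADM library, 200 CPM, lay within the range of the green cKO-Eed-MADM libraries (86.8 to 223 CPM).

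Between colours, 15 comparisons were made over the 4 ages, of red or yellow with green cells within a genotype or of red cells between genotypes, and 0 of 85 member tests were called by edgeR's quasi-likelihood test with Benjamini-Hochberg adjustment, with 19 at an unadjusted p under 0.05. Called among all genes were 2.53% at P0 and 1.37% at E16.5, but only 0.0374% for E13.5 and 0.0916% for E12.5. The lowest p belonged to Col1a1 in red against green control-MADM cells at P0, where 18.5 and 65.5 CPM stood against 0.714 to 3.81 CPM (log2 difference 4.22 ± 0.88 SE, adjusted p = 0.174). Without the red library labelled cKO-Eed-MADM replicate 1, a choice made after seeing the data, 1 of 30 tests at P0 was called (Dcn, higher in yellow than in green control-MADM cells). DESeq2 called 3 member tests, Col1a1 at P0 (control-MADM, red against green), Dcn at E16.5 (red, cKO-Eed-MADM against control-MADM) and Cdh5 at E12.5 (control-MADM, yellow against green).

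Other transcripts moved in the same green cKO-Eed-MADM libraries at P0, where 24.2% of all genes were called against control-MADM in either direction. Of 10 microglial genes 9 were tested and 8 rose, among them Csf1r (4.28 ± 0.73 SE, log2), the receptor of CSF1, and Cx3cr1 (3.86 ± 0.83), the fractalkine receptor. Their sum was 194 to 436 CPM, against 7.42 to 61.2 CPM in control-MADM and 1.27 to 172 CPM in Eed-MADM. Red blood cell genes did not pass the test in either direction (0 of 5, sum of 1.44 to 52.3 CPM against 2.31 to 225 CPM). Of choroid plexus genes, 1 of 2 tested rose, Otx2 (6.61 ± 0.90), and the list's sum was 63.4 to 152 CPM against 6.43 to 117 CPM. The red blood cell and choroid plexus lists are too small for their counts to be told from the share of all genes. Of 10 genes of dorsal cortical progenitors and neurons, 7 fell, with Neurod2 at -2.67 ± 0.20 and Neurod6 at -2.38 ± 0.33. The part of these cell types in the levels of the 10 members was not tested.

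Genes with related functions gave a wider view of the P0 contrast of green cKO-Eed-MADM and control-MADM cells, in which the median log2 difference of all genes was -0.01 and 24.2% of all genes were called in either direction. Of other fibroblast matrix genes 9 of 15 tested rose and 0 fell (median 1.83), among them Bgn, encoding biglycan (2.60 ± 0.38 SE), Col5a2 (2.54 ± 0.50) and Fbln2 (1.84 ± 0.31). Meningeal transcription factors rose in 9 of 11 (median 4.14). Twist1, a mesenchymal factor, was at 16.6 to 29.8 CPM against 0 in all control-MADM libraries, at least 206-fold higher, and Zic1 was at 79.4 to 108 CPM against 8.27 to 28.9 CPM. Endothelial transcription factors rose in 6 of 10 (median 1.95), led by Tal1, a factor of blood and endothelial lineages (9.42 ± 0.45, adjusted p = 4.35e-13, edgeR's quasi-likelihood test with Benjamini-Hochberg adjustment), and Gata2 (8.75 ± 0.76). Twist1 could pass the filter on low counts only through Eed-/- libraries, so that its rise was largely set by the filter. For the other factors this was not examined. The counts of 9 of 11 and 6 of 10 may therefore rest partly on the filter. Of other endothelial surface and junction genes 3 of 8 rose and 1 fell, with Itm2a at 3.27 ± 0.30, Ramp2 at 2.45 ± 0.23 and Slco1c1, a thyroid hormone transporter, at -3.82 ± 0.41. Pericyte genes rose in 1 of 6 (Notch3, 1.64 ± 0.39), and 3 of 9 VEGF and angiopoietin ligands and receptors rose (Nrp2, Angpt1 and Dll4). The pericyte and VEGF lists thus gave shares near that of all genes. All these lists hold members that the sorted cells themselves can express.

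Tal1 and Twist1 were also present in Eed-/- libraries that held few transcripts of the 10 members. At E16.5 Tal1 was at 141 to 194 CPM in green cKO-Eed-MADM and at 0 in control-MADM (at least 843-fold higher), and Twist1 at 27.8 to 34.2 CPM and 0 (at least 162-fold), in libraries whose endothelial sums were 0.209 to 5.03 CPM. In green Eed-MADM at P0 Tal1 was at 7.75 to 21.1 CPM and Twist1 at 1.43 to 7.13 CPM, with a read in all 9 libraries, where Dcn was at 0 to 4.29 CPM and no member was called against control-MADM. In that contrast 1.75% of all genes were called in either direction. Of Hox genes 18 of 24 rose, as did 3 of 10 endothelial transcription factors (Tal1, Gata2 and Foxf2) and Twist1. Called were 0 of 15 other fibroblast matrix genes, 0 of 8 other endothelial surface genes and 0 of 9 microglial genes. Lists this small would mostly give 0 calls at the share of all genes, so these 0 counts tell nothing particular of their genes. The Hox genes tested and Twist1 had passed the filter on low counts almost only through Eed-/- libraries, which favours a high count of rises among them.

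**Figure D4:**
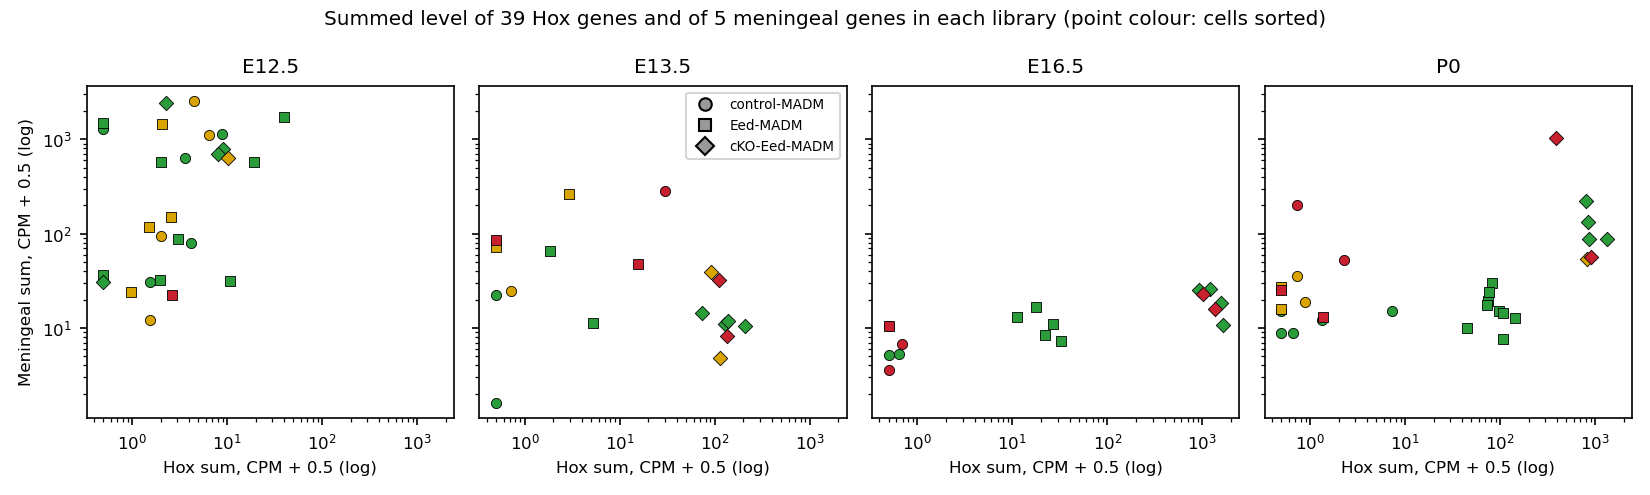
Summed level of the 5 meningeal genes against that of 39 Hox genes, both as CPM + 0.5 on log axes, in each library by age, with symbols for genotype and point colours for the cells sorted. At E12.5 meningeal sums reach 2545 CPM at low Hox sums, at E16.5 Hox sums of cKO-Eed-MADM reach 928 to 1632 CPM at meningeal sums of at most 25.3 CPM, and at P0 both are high in cKO-Eed-MADM.

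The Hox clusters are well known targets of PRC2. In green cKO-Eed-MADM cells at P0 24 of 24 Hox genes tested rose against control-MADM (median 9.33), Hoxa7 being at least 786-fold and Hoxb13 at least 1474-fold higher. Hox sums at P0 were 391 to 1320 CPM in the 7 cKO-Eed-MADM libraries, 44.8 to 144 CPM in 9 green Eed-MADM libraries and 0 to 6.80 CPM in control-MADM. With control-MADM sums this low, Hox genes could pass the filter on low counts almost only through Eed-/- libraries. The count of 24 of 24 was therefore largely set by the filter, whereas the sums were taken without it. Green Eed-MADM cells, Eed-/- with raised Hox sums, had meningeal sums of 7.13 to 29.2 CPM, overlapping the 8.29 to 14.6 CPM of green control-MADM cells.

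Within groups, members of the same set mostly varied together more than members of different sets, with Dcn a partial exception. After the mean of each group of age, genotype and colour was taken out, the Spearman correlation over 92 libraries had a median of 0.394 over the 10 pairs of meningeal members (0.102 to 0.802) and of 0.344 over the 10 pairs of endothelial members (0.204 to 0.537). Over the 25 mixed pairs it was 0.125 (-0.136 to 0.402). Dcn correlated at 0.324 with Col3a1, the highest of its values. With Col1a1 (0.102), Lum (0.150) and Col1a2 (0.179) it lay under its value of 0.203 with Cdh5. The ranges of the 3 kinds of pair thus overlapped. The meningeal and the endothelial sum correlated at 0.307, and each correlated weakly with the Hox sum, at 0.0112 and 0.160. With microglial genes the values were 0.291 and 0.319, and with red blood cell genes 0.476 and 0.303. These are descriptions over libraries that share depth and sorting, not tests. Differences between genotypes were taken out with the group means, so the values for the Hox sum cannot speak of them.

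The genes whose variation within groups was most like that of the meningeal sum, among 16089 with a mean of at least 1 CPM, were Lgals1 (0.703), Col6a1 (0.689), Vtn (0.684), Bgn (0.674), Col26a1 (0.661), Cd248 (0.639), Lrrc17 (0.614) and Tbx18 (0.612), by Spearman correlation over the 92 libraries. For the endothelial sum they were Itm2a (0.608), Col4a2 (0.592), Htra3 (0.588), Epas1 (0.584), Sparc (0.575), Eng (0.560), Lrtm1 (0.552) and Esyt1 (0.534). No Hox gene was among them, but this ranking could not show differences between genotypes, which were taken out with the group means.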

How the data were processed

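Green, yellow and red cells were sorted from mouse cortex, and RNA of each sample was sequenced with bulk Smart-Seq2 (full-length cDNA of polyadenylated RNA). The authors aligned reads with STAR to mm10, kept reads that align to 1 place, and deposited a count of reads per gene for each library, without normalization. Each table holds 3 count columns, for reads of either strand together and for each strand, and the first was used, since the kit does not mark strand. Overlapping genes cannot be told apart in it, and genes with near-identical copies are undercounted. The sources used here do not give the annotation release. Of 53379 identifiers, 53274 matched GENCODE M21, which gave symbols and 1-based coordinates. Rows that name no gene were left out. In the 92 libraries used, 13.4% to 40.4% of uniquely aligned reads lay in no gene or several, and 18.7% to 40.0% of all reads were unmapped. Of 116 libraries, 18 were left out for under 1000000 uniquely aligned reads and 6 for under 60%. Columns of per-sample values without a sample numbered 0. The labels give 1 sequencer where the study's methods give 2 kinds, and no batch is named per library, so that none could be tested. No 2 libraries held identical counts. Nothing says whether the samples of a group came from separate litters, so p-values measure the spread between these samples, which may be technical.

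Counts were scaled with TMM. Genes whose mean count exceeded 10 (1 at E12.5) were tested by edgeR's quasi-likelihood method (version 4.0.16, robust, in R 4.3.3), green libraries of all genotypes of an age in one fit, with Benjamini-Hochberg adjustment over all genes tested and a threshold of 0.05. Errors of log2 fold changes were taken from the size of the change and its F statistic. Levels were CPM with effective library sizes over the 92 libraries, and a pseudocount of 0.5 was added before logs. Where no library of a group had a read, folds were bounded with 3 counts in that group as a whole. Summaries were made with pandas 2.3.3, numpy 2.4.6 and scipy 1.17.1 in Python 3.11.15. The fit was first tested on simulated data. The replicate numbers were not taken to pair the samples, since same-numbered green libraries of an age deviated together only weakly in the median (correlations of -0.175 to 0.335). Their median correlation was slightly above that of other pairs at P0 (0.0484 against -0.0141) and E16.5 (0.0225 against -2.66e-05). It was below that of other pairs at E12.5 and E13.5. A weak pairing at the later ages was not tested. Promoters came from a RefSeq table of GRCm38.p6. No entry was used for Col1a1, Dcn, Lum, Pecam1 or Cdh5.

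The 10 members and all gene lists were chosen with earlier results of these data known, so that no count over them is independent support. Named are the 10 members, Eed, up to 3 called genes of lowest adjusted p from each list in a contrast whose calls are given, and the 8 genes most like each summed level. Some genes that this rule would name are not reported here. The VEGF list also holds PDGF and Notch ligands. Alternatives were DESeq2 1.42.0, its size factors within edgeR, filterByExpr or no filter at all, all green libraries, all colours in one fit, the counts of one strand, the replicate number as a block and leaving out each library of groups of 2 to 5.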

Additional observations from a re-analysis of the deposited data

Results flagged for a closer look

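Of 132 groups of 4 to 10 libraries examined (12 quantities in 11 groups), 43 held a library whose gap to the others exceeded Dixon's limit. Chance gives about 1 in 20 for normally distributed values, but CPM are skewed and hold many zeros, so that the number of such groups is no measure of an excess. In 8 of the 43 every other library of the group was at 0. All values are CPM.

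At E12.5, green Eed-MADM replicate 8 lay far above the other libraries of its group in the endothelial sum (965) and in each endothelial member, with Cldn5 at 154, Pecam1 at 190, Kdr at 264, Flt1 at 152 and Cdh5 at 204. Green Eed-MADM replicate 6 stood apart in Dcn (104). Yellow Eed-MADM replicate 4 stood apart in the meningeal sum (1463), in Col1a1 (485), Col1a2 (473), Col3a1 (376), Dcn (38.9), Lum (89.4), Cldn5 (0.778) and Cdh5 (8.55), and yellow replicate 1 in Pecam1 (2.07). Green cKO-Eed-MADM replicate 3 stood apart in the endothelial sum (293), Kdr (103) and Flt1 (36.2). Among control-MADM libraries the outlying values were Lum in green replicate 4 (61.5), Cldn5 (6.02) and Pecam1 (3.61) in green replicate 3, Lum in yellow replicate 5 (170), and Pecam1 (55.1) and Kdr (85.1) in yellow replicate 2.

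At E13.5, green cKO-Eed-MADM replicate 3 lay apart in Lum (1.86) and replicate 1 in Pecam1 (4.65) and Cdh5 (0.665). At E16.5, green Eed-MADM replicate 1 lay apart in Col1a1 (3.31) and Cdh5 (0.221) and replicate 2 in Cldn5 (4.31). Of the green cKO-Eed-MADM libraries of that age, replicate 1 lay apart in Dcn (15.3) and Flt1 (0.209), replicate 3 in Lum (6.23) and Pecam1 (1.75), and replicate 4 in Cldn5 (3.62).

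At P0, green Eed-MADM replicate 2 lay apart in Col1a1 (12.7), replicate 3 in Lum (1.73), replicate 8 in Kdr (1.91) and replicate 4 in Cdh5 (0.171). Green cKO-Eed-MADM replicate 4 lay apart in the endothelial sum (40.4) and Cldn5 (30.2), and replicate 3 in Col3a1 (46.4). The values of 0.171, 0.209, 0.221 and 0.778 stand for 1 read each.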

How the results depend on the processing

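For green cells at P0, Dcn (log2 difference 4.37 to 5.20), Col1a2 (2.69 to 3.35) and Col1a1 (2.58 to 3.55) kept their direction and their call against control-MADM in edgeR, in DESeq2, without a filter and without each library of groups of 2 to 5. The filter on low counts mattered most. Without it, 10 member tests between colours at E12.5 were called (5 higher, 5 lower), 3 at E13.5, 2 members at E16.5 in cKO-Eed-MADM against control-MADM (Dcn and Lum), and 6 between ages (1 higher, 5 lower). DESeq2 called 1 member test between colours at E12.5, 1 at E16.5 and 1 at P0, and 1 member (Col1a2, lower) at E13.5 in cKO-Eed-MADM against Eed-MADM. With all green libraries, 1 (Col1a2, lower) was called at E13.5 in cKO-Eed-MADM against control-MADM. Without the red library labelled cKO-Eed-MADM replicate 1, chosen after seeing the data, 1 was called between colours at P0. Without each library in turn, 0 to 1 were called at E16.5 in cKO-Eed-MADM against control-MADM and 2 to 4 at P0 in cKO-Eed-MADM against Eed-MADM. Without each library in turn, the log2 difference of Col1a1 at E16.5 ran from -0.27 (without cKO-Eed-MADM replicate 3) to 0.75, and that of Cldn5 at P0 from -0.71 (without cKO-Eed-MADM replicate 4) to 1.61. Of these, the leave-one-out results rest on fewer libraries, and the cause of the others was not tested.

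Replicate numbers shared by groups were not taken to pair the samples. With the number as a replicate block, 1 member (Cldn5, higher) was called at E12.5 and 0 at E16.5 in cKO-Eed-MADM against control-MADM, and 2 at P0 in cKO-Eed-MADM against Eed-MADM. Depth was lowest at E12.5, where 1 read equals 0.42 to 1.05 CPM and 3 reads 1.26 to 3.15 CPM, so that levels under these rest on few reads or none.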
